A study of Bactrocera dorsalis with 6 samples.

Results

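The unigenes comp27850_c0 and comp29343_c0 of the oriental fruit fly, Bactrocera dorsalis, are the entries for sisA and runt in the sex determination list of the study, and are described here with their isoforms in all 6 libraries. They are 2 of the 10799 unigenes and have 3 of the 20666 isoforms of the transcriptome, which was assembled from RNA reads without a genome. The list was made by protein similarity to D. melanogaster, and no use of a measured level to pick its entries is described. The assembly searched for it had, however, been filtered on abundance in the pooled reads of all libraries. Eggs and mated females held 807 of the 812 counts of comp27850_c0 and 784 of the 797 of comp29343_c0. Both therefore passed that filter largely through the libraries in which they are high. Libraries were made from eggs, larvae and pupae, from adult males and females kept virgin, and from females seen to mate. All came from 1 long-kept laboratory colony, with 1 library per stage and no treatment. Larvae were reared for the study on liquid artificial diet, and adult cages held sugar water and torula yeast. The RNA of an immature stage or of virgin adults was a pool of daily extractions, in eggs from laying until hatch, so that each library averages over the days of its stage. Mated females were collected after the last virgin adults, so age and mating cannot be told apart. For mated females, no removal of ovaries or eggs is described. In these whole-insect libraries, fewer cells of a type and less RNA per cell cannot be told apart either.

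In D. melanogaster, sisA encodes a basic leucine zipper transcription factor and runt a Runt domain transcription factor. Both genes lie on the X chromosome there and are part of the signal by which embryos with a pair of X chromosomes switch on Sxl, the master gene of female development, and runt also acts as a pair-rule gene in segmentation of the embryo. Tephritid flies, the family of B. dorsalis, instead set sex by a male-determining factor on the Y chromosome that acts on transformer, so the roles known from D. melanogaster do not carry over as such.

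The identity of comp27850_c0 was the same in both tables of the study that name it, FBgn0003411, which is sisA. For comp29343_c0 the tables differ. The sex determination list places it under runt, FBgn0003300, while the ortholog table pairs it with another D. melanogaster gene, FBgn0259162. The list gives a further unigene under runt, comp9454_c0, and the ortholog table pairs that one with FBgn0002576. D. melanogaster has several Runt domain genes, and the list was made by similarity of sequence, so comp29343_c0 is called the runt-list unigene below. No sequence of either unigene was used here.

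Expected counts, the estimated number of fragments from a transcript, summed to between 7386960 in eggs and 9905262 in males, a range of 1.34-fold. With 1 library per stage there was no replicate check and no test, and intervals are 95% intervals that cover counting error only. The virgin female library is called the library labelled female, because the shares of its 4 dsx isoforms lay 21.8 percentage points from those of males and 85.4 from those of mated females, so the sex behind its values is in doubt.

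Both unigenes were found almost entirely in eggs and mated females. The sisA unigene comp27850_c0 had 520 expected counts in eggs, then 3 in larvae and 2 in pupae, 0 in males and 0 in the library labelled female, and lastly 287 in mated females. As FPKM, fragments scaled by transcript length and library total, its levels were 34.07 in eggs (interval 31.2 to 37.1), then 0.29 in larvae and 0.17 in pupae, 0 in males and 0 in the library labelled female, and again high at 18.13 in mated females (16.1 to 20.4). Eggs stood above mated females with intervals that did not meet, and both stood far above the other 4 libraries, whose intervals overlapped. In these 4 libraries 1 count was worth between 0.0683 and 0.0968 FPKM, and the 0 counts of males and of the library labelled female allow up to 3 counts, or 0.205 and 0.233 FPKM.

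The runt-list unigene comp29343_c0 had 464 expected counts in eggs, then 3 in larvae and 3 in pupae, 4 in males and 3 in the library labelled female, and lastly 320 in mated females. Its FPKM was 14.97 in eggs (interval 13.6 to 16.4), then 0.14 in larvae and 0.13 in pupae, 0.13 in males and 0.11 in the library labelled female, and again high at 9.96 in mated females (8.90 to 11.1). The order of its libraries was the same as for sisA at the top, eggs above mated females, and the other 4 could not be ranked at this depth. The other entry under runt, comp9454_c0, had another distribution, with 3 counts in eggs, then 0 in larvae and 12 in pupae, 9 in males and 11 in the library labelled female, and only 1 in mated females. Its highest FPKM was 1.43, in pupae (interval 0.739 to 2.50). The interval of eggs (0.0558 to 0.790) met that of pupae, and that of mated females (0.00220 to 0.484) did not.

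**Figure D1:**
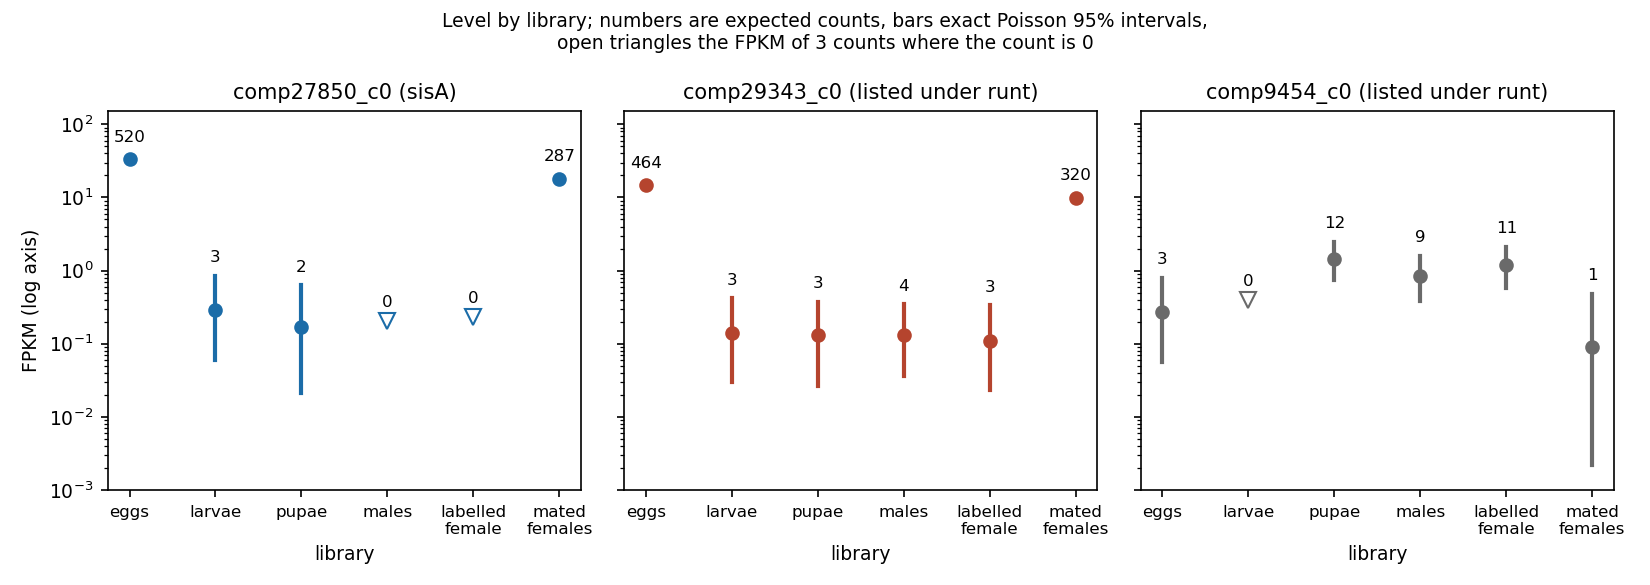
FPKM (log axis) of comp27850_c0, comp29343_c0 and comp9454_c0 in each of the 6 libraries, 1 point per library with its exact Poisson 95% interval and its expected count; open triangles mark the FPKM of 3 counts where the count was 0. The first 2 unigenes are high in eggs (520 and 464 counts) and mated females (287 and 320 counts) and at 4 counts or fewer elsewhere, while comp9454_c0 has 9 to 12 counts in pupae, males and the library labelled female.

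Set against the 4 other libraries pooled, which held 5 counts of the sisA unigene, its TMM-scaled level was 337 times as high in eggs (interval 143 to 1041) and 179 times as high in mated females (75.9 to 556). Against single libraries, eggs were 117 times as high as larvae (39.9 to 571). With 3 counts taken for a count of 0, eggs were 166-fold higher than males and 146-fold higher than the library labelled female. On the same footing, mated females were 77.9-fold higher than the library labelled female. The folds of 166, 146 and 77.9 take the egg or mated female count as exact, so its counting error is left out. For the runt-list unigene comp29343_c0, the 4 other libraries held 13 counts, and eggs were 116 times as high (66.9 to 219) and mated females 76.9 times as high (44.3 to 146).

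Eggs plus mated females held 99.1% of the FPKM summed over the libraries for the sisA unigene (interval 98.0% to 99.6%) and 98.0% for the runt-list unigene (96.6% to 98.8%). Of the 9596 unigenes with an FPKM above 0 in at least 1 library, 243 (2.53%) held 90% or more of their sum in eggs and mated females, and both unigenes are among them. The median over the 9596 unigenes was 30.3%, with quartiles at 15.8% and 45.7%. The share was at least as high as that of sisA in 134 unigenes, sisA included, and at least as high as that of comp29343_c0 in 151. Among the 243 unigenes, 105 had a higher FPKM in eggs than the sisA unigene and 126 a higher one than the runt-list unigene.

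Within eggs and mated females, both unigenes were higher in eggs. The sisA unigene was 1.88 times as high in eggs as in mated females (interval 1.62 to 2.18) and the runt-list unigene 1.50 times (1.30 to 1.74). On FPKM + 1 the ratios were 1.83 for sisA and 1.46 for the runt-list unigene, both under 2-fold, which 1161 of the 10799 unigenes reached toward eggs (10.8%) and 973 toward mated females (9.01%). Without the TMM factors, which correct each library's total for its composition, sisA passed 2-fold, at 2.15, and the runt-list unigene did not, at 1.70. The unigenes past 2-fold then numbered 1632 toward eggs and 863 toward mated females, and with FPKM summed over isoforms 991 and 1376. The deposited unigene FPKM is 0 in every library for the 1203 unigenes without egg counts, so none of these could be called. Over the other 9596 unigenes the shares were 12.1% toward eggs and 10.1% toward mated females, and on summed isoform FPKM 201 of the 1203 passed 2-fold toward mated females. The ratio of the sisA unigene was 1.25 times that of the runt-list unigene (interval 1.02 to 1.53), a comparison in which the scaling of the libraries cancels out. Of the 243 unigenes, 183 had an FPKM above 0 in both libraries and the other 60 were listed at 0 in mated females. The median ratio over the 183 was 1.18, with quartiles at 0.796 and 1.62, and 29 had a higher ratio than sisA and 52 a higher one than comp29343_c0. The 60 without a ratio, all toward eggs, are not in these counts, and unigenes without egg counts could not enter the 243.

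**Figure D2:**
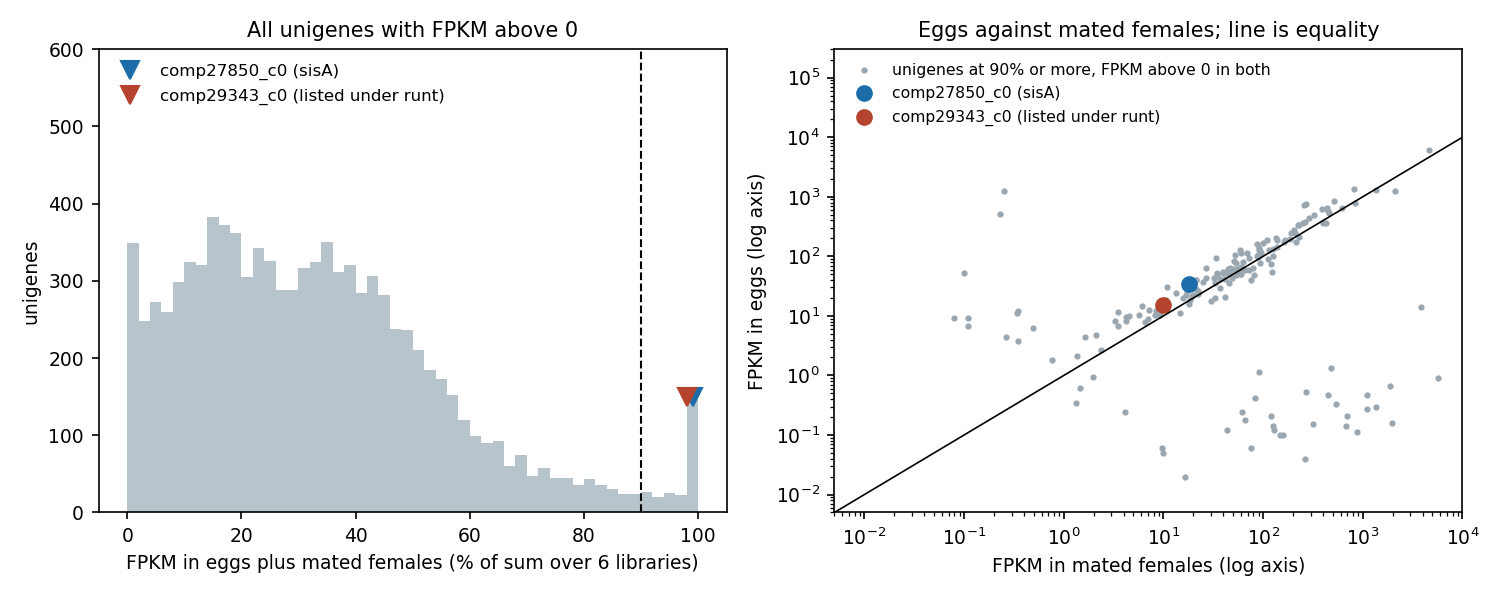
Left, unigenes by the percent of their FPKM summed over the 6 libraries that lies in eggs and mated females, with the bound of 90% dashed and triangles at 99.1% for comp27850_c0 and 98.0% for comp29343_c0; the height of the triangles has no meaning. Right, FPKM in eggs against FPKM in mated females (log axes) for the 183 unigenes at or above that bound with an FPKM above 0 in both, where both members lie above the line of equality, at 34.07 against 18.13 and 14.97 against 9.96.

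In the FlyBase categories used by the study, the sisA unigene was moderately high in eggs, with an FPKM of at least 26, and moderate in mated females, with an FPKM of at least 11. The runt-list unigene was moderate in eggs and low in mated females, the category between 4 and 11. The interval of its mated female level, 8.90 to 11.1, spans the bound of 11. In eggs 2344 unigenes had a higher FPKM than comp27850_c0 and 4219 a higher one than comp29343_c0, and in mated females 3785 and 5032 did. Per length, the sisA unigene was 2.28 times as high as the runt-list unigene in eggs (interval 2.004 to 2.58) and 1.82 times in mated females (1.55 to 2.14).

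The sisA unigene comp27850_c0 had 2 isoforms, comp27850_c0_seq1 and comp27850_c0_seq2, whose lengths recovered from the ratio of counts to FPKM were 1515 and 1627 bp. In eggs seq2 took 367.61 of the 520 counts and seq1 152.39. In mated females seq2 took 154.91 of the 287 counts and seq1 132.09. The share of seq2 was thus 70.7% in eggs (Wilson interval 66.7% to 74.5%) and 54.0% in mated females (48.2% to 59.7%), a difference of 16.7 percentage points (Newcombe interval 9.76 to 23.6). On isoform FPKM, seq2 was 2.13 times as high in eggs as in mated females (interval 1.76 to 2.59), while seq1 stood at 10.01 in eggs and 9.65 in mated females, a ratio of 1.04 (0.816 to 1.32). Isoform FPKM carries TMM factors of its own, and summed over both isoforms the unigene was 1.61 times as high in eggs. Both isoform ratios therefore depend on the scaling. The few counts of larvae and pupae, 3 and 2, were all assigned to seq1, too few to give a share.

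A shift of this kind was common. Of the 2993 unigenes with 2 or more isoforms and at least 100 counts in eggs and in mated females, 1373 (45.9%) differed by at least 10 percentage points in the share of their leading isoform, and 858 (28.7%) by at least as much as the sisA unigene. Reads that fit both isoforms are divided by an estimate, an error that the intervals leave out. The runt-list unigene had a single isoform, comp29343_c0_seq1 with a recovered length of 3235 bp, as had 6438 unigenes (59.6%). Its isoform FPKM was 14.28 in eggs and 10.96 in mated females, a ratio of 1.30 (1.13 to 1.51), against 1.50 at the unigene level from the same counts. The isoform table carries TMM factors of 1.36 for eggs and 1.005 for mated females, and the unigene table carries 1.30 for eggs and 1.11 for mated females.

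**Figure D3:**
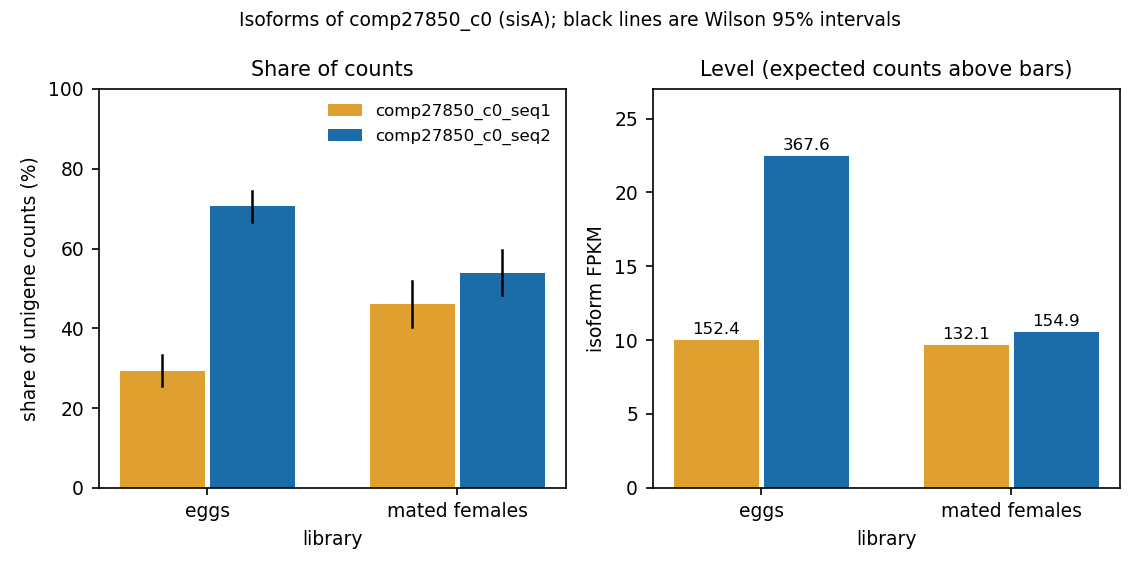
Share of the counts of comp27850_c0 (left, %, with Wilson 95% intervals) and isoform FPKM (right, expected counts above the bars) for its 2 isoforms in eggs and mated females. The bars of seq2 are at 70.7% in eggs and 54.0% in mated females, and those of seq1 are at an FPKM of 10.01 in eggs and 9.65 in mated females.

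The sex determination list used here, with Notch left out because its entry is cut short, holds 45 other unigenes. None of them (0 of 45) held 90% of its FPKM in eggs and mated females, against 2.53% of all unigenes, and their shares ran from 3.59% to 84.1% with a median of 41.9%. At 2-fold on FPKM + 1, 7 of the 45 (15.6%) were higher in eggs than in mated females, against 12.1% of the 9596 unigenes, and 3 (6.67%) were higher in mated females, against 10.1%. By mean FPKM over the libraries, which also sets what is called the highest unigene of a gene below, 30 of the 45 lay above the sisA unigene and 36 above the runt-list unigene.

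Among the other signal genes, scute, a helix-loop-helix factor that in D. melanogaster acts with sisA on Sxl, was hardly detected. Its unigene comp15662_c0 had 4 counts in eggs, 4 in pupae and 0 in each of the other 4 libraries, which allows up to 3 counts in each. The list under Dpn, deadpan, which in D. melanogaster counters the X signal, holds 11 unigenes. The highest of these by mean FPKM, comp27002_c0, which the ortholog table pairs with other genes, had an FPKM of 73.21 in eggs and 72.83 in mated females, and between 38.19 and 50.94 in the rest. The highest of the 9 unigenes under Gro, named for the corepressor groucho, was comp27217_c0, which ranged from 500 FPKM in males to 1766 in larvae. It has no pair in the ortholog table as used here, so its values are not taken as those of groucho.

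A further 3 unigenes under Dpn, chosen after their values were seen, were highest in eggs and had no count in mated females, and none has a pair in the ortholog table as used here. Of the 7271 unigenes with at least 23 egg counts, the fewest of these 3, 169 (2.32%) had no count in mated females. The unigene comp29233_c0 had 189 counts in eggs, 27 in pupae and 0 in each of larvae, males, the library labelled female and mated females. With 3 counts taken for a count of 0 and the egg count as exact, eggs were 65.3-fold higher than mated females. The unigene comp8341_c0 had 66 counts in eggs, 14 in pupae and 0 in mated females, 22.8-fold higher in eggs on the same footing. For comp20281_c0 there were 23 counts in eggs, 4 in pupae, 1 each in larvae and males and 0 in mated females, 7.95-fold higher in eggs. In mated females the sisA unigene stood at 53.2% and the runt-list unigene at 66.5% of the egg FPKM.

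Downstream in the D. melanogaster pathway, the highest of the 16 unigenes under Sxl, which encodes an RNA-binding splicing regulator, was comp29768_c1, with FPKM from 897 in males to 2759 in larvae. The unigene that the ortholog table pairs with Sxl itself, comp20961_c0, also chosen after its values were seen, was much lower. Its FPKM was 44.85 in eggs, 21.2 in larvae and 35.32 in mated females, and between 7.9 and 8.26 in the other libraries, so that eggs and mated females were again highest, but with a share of 63.9%. The unigene of tra-2, comp23083_c0, which encodes the splicing partner of transformer, had a share of 61.4%, with 50.8 FPKM in eggs, 33.55 in mated females and between 9.74 and 15.25 in the rest. The unigene of dsx, comp25690_c0, the transcription factor at the end of the pathway, was lowest in eggs, at 0.29, and highest in mated females, at 16.67.

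The unigenes listed under dosage compensation genes had counts in every library. Those listed under msl genes have no pair in the ortholog table as used here, so their names rest on the list. The msl-1 unigene comp27436_c0 had 15.65 FPKM in eggs and 15.98 in mated females, and between 2.93 and 5.62 in the other libraries, a share of 63.3%. The msl-2 unigene comp27138_c0 ranged from 1.7 FPKM in pupae to 5.2 in eggs, and the msl-3 unigene comp29813_c1 from 21.43 in pupae to 43.32 in eggs. The higher of the 2 unigenes under unr, which in D. melanogaster represses msl-2 translation, was comp27709_c0. The list gives FBgn0263352 for unr, while the ortholog table pairs comp27709_c0 with FBgn0032684, so its values are not taken as those of unr. The FPKM of comp27709_c0 was lowest in eggs, at 16.83, and highest in pupae, at 79.66. The other entry, comp30423_c0, has no pair and ranged from 6.93 in mated females to 21.37 in the library labelled female.

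**Figure D4:**
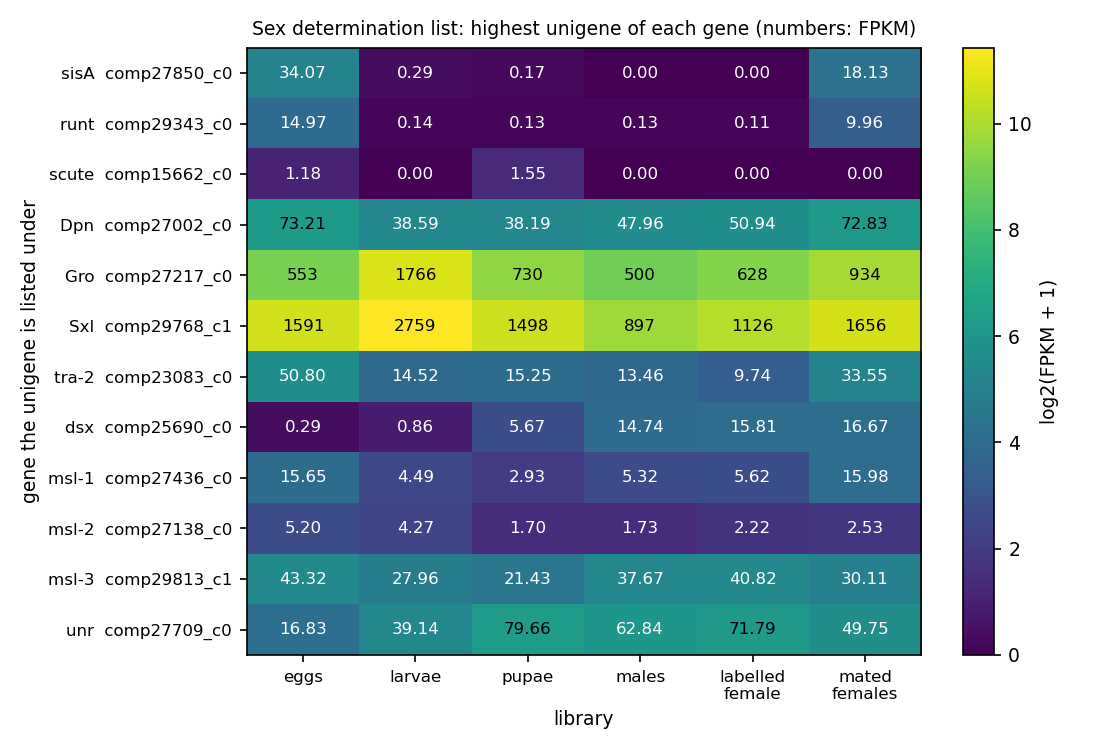
FPKM (numbers) and log2(FPKM + 1) (colour) of the highest unigene, by mean FPKM, of each of the 12 genes of the sex determination list used here, in the 6 libraries. The rows of sisA and of the runt-list unigene comp29343_c0 are near 0 outside eggs and mated females. The row of scute is at 1.55 or less throughout, and the remaining rows have a signal in all libraries.

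Likeness of pattern was measured as the Euclidean distance between profiles of log2(FPKM + 1) over the 6 libraries, each centred on its median. The distance between the sisA and the runt-list unigene was 1.30. The runt-list unigene was number 42 in distance from sisA among the 9596 unigenes compared, and sisA was number 64 in distance from the runt-list unigene. These places depend on the measure: the runt-list unigene was number 6 from sisA by the Pearson coefficient and 14 with a pseudocount of 0.1, and sisA was number 19 from the runt-list unigene by the Pearson coefficient. The median distance of a unigene was 6.47 from sisA and 5.28 from the runt-list unigene.

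The unigene nearest to sisA was comp24528_c0, paired with FBgn0030323, at a distance of 0.27, with an FPKM of 39.71 in eggs, 21.36 in mated females and at most 0.46 elsewhere. The next were comp29016_c0, which had 291 counts in eggs, 166 in mated females and 0 in each other library, at a distance of 0.48, and comp29513_c1 (paired with FBgn0004795), comp14725_c0 (FBgn0034314) and comp29649_c2 (FBgn0052088), at distances of 0.57 to 0.65. Nearest to the runt-list unigene was comp20774_c0, at a distance of 0.17, with 56 counts in eggs, 45 in mated females and 0 in each other library. It was followed by comp27824_c0, comp20922_c0, comp27988_c0 (paired with FBgn0032147) and comp26053_c0. These last 2 are far more abundant, at 168.51 and 98.9 FPKM in eggs, and at least 5.65 FPKM in every library. Their shares in eggs and mated females were 89.0% and 86.1%, against 98.0% for the runt-list unigene. They were thus near on log2(FPKM + 1), where adding 1 flattens levels close to 0, without its near absence elsewhere.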

How the data were processed

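Whole B. dorsalis of 6 stages were sequenced as 1 library per stage. The authors filtered reads on quality, assembled the pooled reads with Trinity, and removed low-abundance and non-coding contigs. They aligned each library to the remaining transcripts with bowtie and estimated abundance with RSEM. The submitters' processing notes name Bowtie 0.12.7 and RSEM 1.2.0, while the paper names an earlier RSEM version for the abundance of each library. Deposited were expected counts, not normalized, and FPKM scaled with TMM factors, for unigenes and isoforms. The 1203 unigenes without egg counts are listed at FPKM 0 in every library although all have counts elsewhere. They are left out of the 9596 unigenes compared.

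TMM factors and lengths were recovered from the ratio of counts to FPKM, using 4207 unigenes with at least 50 counts and an FPKM of 5 in every library. Counts were given exact Poisson intervals, shares Wilson intervals and ratios exact intervals from the split of the counts (a normal approximation on the log scale for the ratio of both ratios). A count of 0 was read as up to 3 counts. Expected counts were rounded for the intervals. The scripts were tested on simulated data. Because each stage has 1 library, no p-value was computed.

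The unigenes, lists, bounds and alternatives were chosen with earlier results of these data known. Named are both unigenes, comp9454_c0, the only or the highest unigene of each gene of the sex determination list, and the 5 unigenes nearest to each. The unigenes comp20961_c0 and comp30423_c0 and 3 Dpn unigenes fall outside this rule. Gene names come from the tables of the paper. Software was Python 3.11.15 with scipy 1.17.1, pandas 2.3.3, numpy 2.4.6 and, for figures, matplotlib 3.10.9.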

Additional observations from a re-analysis of the deposited data

How the results depend on the processing

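Both unigenes stayed higher in eggs than in mated females under each alternative tried, with ratios between 1.61 and 2.20 for comp27850_c0 and between 1.30 and 1.76 for comp29343_c0. Without TMM factors the ratios were 2.20 and 1.76, and with FPKM summed over isoforms 1.61 and 1.30, so this ratio depends on the scaling. Their share of FPKM in eggs and mated females was between 98.3% and 99.4% for comp27850_c0 and between 97.9% and 98.5% for comp29343_c0. The number of unigenes with a share of 90% or more lay between 225 and 281, including 275 from TMM-scaled counts of all 10799 unigenes, an alternative chosen after the data were seen, and 184 had a share of 95% or more. With a pseudocount of 0.1, 2084 unigenes were at least 2-fold higher in eggs than in mated females and 1192 were higher in mated females. The place of comp29343_c0 by likeness to comp27850_c0 was 6 with the Pearson coefficient and 14 with a pseudocount of 0.1, and the place of comp27850_c0 by likeness to comp29343_c0 was 19 with the Pearson coefficient. The share of comp27850_c0_seq2 by isoform FPKM was 69.2% in eggs and 52.2% in mated females. With 1 library per stage, no variation between animals or libraries could be measured, and the 0 to 4 counts in larvae, pupae, males and the library labelled female do not rank those libraries.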
